A study of Mus musculus with 12 samples.

Results

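The V-ATPase is the proton pump of lysosomes, endosomes and secretory granules, and its V1 sector is the part in the cytosol that burns ATP. Expression of the V1 subunit genes was followed in the bone marrow of leucopenia mice. The members were the rows of the deposited gene table that carry the symbols Atp6v1a, Atp6v1b2, Atp6v1c1, Atp6v1c2, Atp6v1d, Atp6v1e1, Atp6v1f, Atp6v1g1, Atp6v1g2 and Atp6v1h. They are 10 of the 34745 genes in the table, and a gene was included by its symbol, with no threshold on a measured value. The genes lie apart in the mouse genome (mm10), Atp6v1a at chr16:44085402-44139705, Atp6v1b2 at chr8:69088646-69113711, Atp6v1c1 at chr15:38661904-38692443, Atp6v1c2 at chr12:17284721-17329359, Atp6v1d at chr12:78842989-78861638, Atp6v1e1 at chr6:120794305-120822793, Atp6v1f at chr6:29467718-29470512, Atp6v1g1 at chr4:63544772-63550750, Atp6v1g2 at chr17:35233660-35238767 and Atp6v1h at chr1:5070018-5162529.

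The study asked how Qi Jing Sheng Bai granule (QJSB), a herbal formula given for low white cell counts, acts on bone marrow damaged by cyclophosphamide. Total femoral bone marrow of male ICR mice, an outbred stock, was sequenced, with 3 mice in each of 4 groups, and the age of the mice is not given in the sources used here. The normal group received saline. The model group received cyclophosphamide, an alkylating drug toxic to proliferating cells, by intraperitoneal injection of 80 mg/kg a day from day 5 to day 7 of 1 week, with saline by mouth. The QJSB group was injected likewise and took QJSB by mouth at 3 g/kg a day through the week. The leucogen group was injected likewise and took leucogen, a drug used to raise white cell counts, by mouth at 20 mg/kg a day. All groups but the normal one were therefore exposed to cyclophosphamide, and no group had either drug without it. The drug groups can be compared with each other only as given, since 1 dose of each was used.

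The V1 sector is built from a ring of alternating A and B subunits, in which the A subunits split ATP. Subunits D and F form the turning shaft inside the ring, E and G form the outer stalks that hold the ring still, C joins the stalks to the membrane sector V0, and H regulates the pump and keeps free V1 from wasting ATP. V1 can come off V0 and return to it, which sets how acid a lysosome becomes. In bone marrow the pump is best known for the acid secreted by osteoclasts, and it also acidifies lysosomes of macrophages and granules of developing neutrophils.

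The libraries held between 11172547 and 18545198 counts, with a median of 14821308. Depth sets counting error only, and each pair of mice in a group differed by more than counting error, with chi-square values of 10.2 to 99.6 per degree of freedom. The markers of the labelled tissue were present. The 10 late neutrophil markers summed to 10168 to 10807 CPM (counts scaled to the library total adjusted by edgeR's TMM factor) in the normal mice, and the 9 erythroid markers found summed to 8298 to 9441. In the mice given cyclophosphamide the erythroid sum was 50.4 to 380 CPM. The late neutrophil sum spread widely within the model group, from 2025 to 6319 CPM, and within the QJSB group, from 3325 in mouse 1 to 18726 in mouse 2. In such bulk samples fewer cells of a type and less RNA per cell cannot be told apart. The column headings of the deposited table name the normal, QJSB and leucogen groups differently from the sample labels (Blank, Stilbene and Positive), and they were matched by meaning and by elimination.

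The promoters of Atp6v1a, the catalytic gene, and Atp6v1c2, the gene with the largest change, are printed because many lysosomal genes share the sequence CACGTG, an E-box bound by the MiT/TFE transcription factors. Promoters of 6 of the 10 V1 genes were found in a RefSeq table of GRCm38.p6, each running from 250 bases before the transcript start to 50 bases after it. CACGTG reads the same on both strands, and it was present in 7.15% of the 32851 promoters in the table. Of the 6 V1 genes, Atp6v1a was the only one with it. Its promoter lies on the minus strand at chr16:44139210-44139509, with the motif (in capitals) 131 bases before the start, and the motif there is flanked as TCACGTGA, a longer form found in 0.974% of promoters. The promoter of Atp6v1c2, on the minus strand at chr12:17324681-17324980, is given beside it and holds no copy. Both windows lie inside the gene bounds given above, so the starts used here are not the outermost starts of those bounds.
Atp6v1a: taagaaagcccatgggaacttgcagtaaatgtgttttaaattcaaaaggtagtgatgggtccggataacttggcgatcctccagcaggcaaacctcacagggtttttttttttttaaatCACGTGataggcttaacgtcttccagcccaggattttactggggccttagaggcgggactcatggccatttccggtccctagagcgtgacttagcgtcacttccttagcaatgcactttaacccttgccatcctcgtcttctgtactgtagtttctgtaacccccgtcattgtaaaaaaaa
Atp6v1c2: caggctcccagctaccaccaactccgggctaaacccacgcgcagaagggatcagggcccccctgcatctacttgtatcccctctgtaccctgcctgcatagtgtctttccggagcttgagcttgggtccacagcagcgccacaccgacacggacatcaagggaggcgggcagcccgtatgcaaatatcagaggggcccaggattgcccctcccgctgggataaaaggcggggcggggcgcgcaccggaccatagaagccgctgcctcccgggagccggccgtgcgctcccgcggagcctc
Among the partners of V1, 3 of the 10 genes of the V0 sector and its accessory subunits found in the table held the motif. It was also held by 2 of 6 assembly and regulatory factors. Of the 22 V1, V0, accessory and assembly genes with a promoter, 4 held the longer form TCACGTGA, namely Atp6v1a, Atp6v0d1, Atp6v0e and Vma21. The promoter of Atp6v0b held 2 copies of CACGTG, and another promoter of Vma21 also held 1. Stretches of 30 bases around 1 copy of the motif are printed for each partner gene that held it, with the motif in capitals. They lie at chr4:117887348-117887377 (minus strand), chr8:105566050-105566079 (minus), chr17:26676387-26676416 (plus), chrX:71816694-71816723 (plus) and chr1:34439696-34439725 (minus), in the order of the lines.
Atp6v0b: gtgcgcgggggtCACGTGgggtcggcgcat
Atp6v0d1: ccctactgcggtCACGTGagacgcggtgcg
Atp6v0e: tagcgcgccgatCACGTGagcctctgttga
Vma21: ccgcgggtaagtCACGTGagtgcttgcagc
Ccdc115: gatttgggatgtCACGTGgtctaagaccgt
A match in these windows describes the letters and was not tested as a binding site.

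To compare levels between subunits, FPKM, in which the authors scaled the fragments of a gene to its transcript length and to the library size, was used. The order depends on the lengths used, which are not given in the sources used here. In CPM, not scaled to length, the highest normal means were those of Atp6v1b2 (129.6 ± 4.7; SD, n = 3) and Atp6v1a (114.6 ± 13.4). Atp6v1d had 78.2 and Atp6v1g1 64.3 CPM. In FPKM the highest levels in the normal mice were those of Atp6v1g1, an outer stalk gene, at 56.0 ± 2.4 FPKM (SD, n = 3) and Atp6v1d, a shaft gene, at 55.04 ± 5.1 FPKM. The ranges of these genes overlapped. Atp6v1c1, the common form of subunit C, followed at 32.0 ± 2.0 FPKM and was apart from its neighbours. Atp6v1f of the shaft (19.7 ± 2.0 FPKM) and Atp6v1b2 of the ring (19.5 ± 0.52 FPKM) overlapped, as did Atp6v1e1 of the stalk (14.8 ± 0.59 FPKM) and the catalytic Atp6v1a (12.96 ± 1.4 FPKM). Atp6v1h, the regulatory subunit, was lower, at 6.82 ± 0.33 FPKM. The alternative forms of subunits G and C, Atp6v1g2 and Atp6v1c2, had only 0.604 ± 0.34 and 0.105 ± 0.020 FPKM.

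The order by FPKM differed in the model group. There Atp6v1a reached 35.7 ± 6.0 FPKM and Atp6v1b2 32.9 ± 1.9 FPKM, above every mouse of the group for Atp6v1f (20.8 ± 2.0 FPKM) and Atp6v1e1 (15.4 ± 1.9 FPKM). Atp6v1c1 had 49.9 ± 2.3, Atp6v1d 47.8 ± 11.3 and Atp6v1g1 45.5 ± 4.2 FPKM, and these overlapped. Further paralogs, Atp6v1b1, Atp6v1e2 and Atp6v1g3, had 0 counts in each of the 12 libraries.

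**Figure D1:**
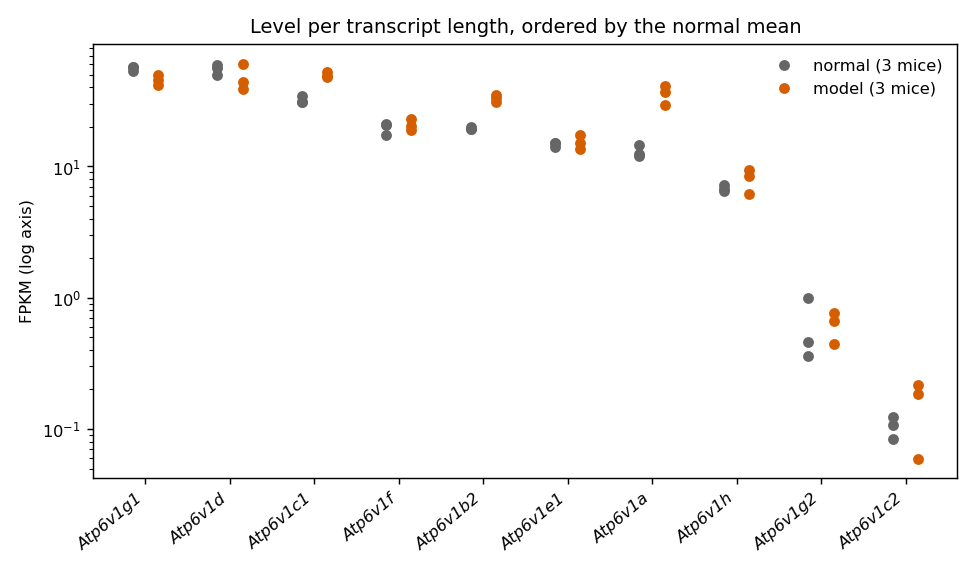
FPKM of each V1 gene (log axis) in the 3 normal and the 3 model mice, with genes ordered by the normal mean and each point standing for a mouse. Atp6v1a moved from 12.96 to 35.7 FPKM and Atp6v1b2 from 19.5 to 32.9 FPKM on average, while Atp6v1g2 and Atp6v1c2 lay below the other genes in each mouse.

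Model and normal mice were compared to see which subunits followed cyclophosphamide. The ring genes and the common C gene rose, Atp6v1a 2.55-fold, Atp6v1b2 1.55-fold and Atp6v1c1 1.44-fold, and the stalk gene Atp6v1g1 fell to 0.749 of normal. Of the 10 genes, 9 had enough counts to be tested, 3 rose, 1 fell and 5 did not pass the test at an adjusted p of 0.05 (edgeR's quasi-likelihood test, adjusted by Benjamini-Hochberg over all 14752 genes tested). Among all genes tested, 19.7% rose and 21.9% fell. The groups did not overlap for 4 of the 9 V1 genes, against 55.4% of all genes. The median log2 fold change was -0.04 over the V1 genes and 0.02 over all genes, and 4 of the 9 values were above 0.

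Atp6v1a encodes the catalytic subunit. It measured 129.8, 109.8 and 104 CPM in the normal mice and 227, 300.1 and 354 CPM in the model mice. Each model mouse was well above each normal mouse, and the log2 fold change was 1.35 ± 0.18 (SE; edgeR adjusted p = 6.04e-04).

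Atp6v1b2 encodes the B subunit that alternates with A. It was even in the normal mice, at 135, 128 and 126 CPM, and measured 192, 190.3 and 225 CPM in the model mice. The log2 fold change was 0.63 ± 0.12 (SE; edgeR adjusted p = 0.0031), again without overlap.

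Atp6v1c1 had 73.5, 65.6 and 64.7 CPM in the normal mice and 89.9, 103 and 101 CPM in the model mice. The groups were apart by a smaller gap, with a log2 fold change of 0.52 ± 0.12 (SE; edgeR adjusted p = 0.0101), and without normal mouse 2 the adjusted p was 0.0573.

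Atp6v1g1 was the only V1 gene to fall, from 67.0, 65.7 and 60.3 CPM in the normal mice to 41.8, 53.1 and 50.7 CPM in the model mice. The groups were apart, with a log2 fold change of -0.42 ± 0.14 (SE; edgeR adjusted p = 0.0392). The call was lost in 10 of 16 other settings, where the adjusted p reached 0.135, and the direction was kept in each.

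The other stalk and shaft genes showed no difference that passed the test. Atp6v1d had a log2 fold change of -0.32 with a 95% interval of -0.74 to 0.10, and model mouse 2 lay with the normal mice at 79.9 CPM. Without that mouse Atp6v1d was called lower, at -0.52 (edgeR adjusted p = 0.0152). The intervals were -0.37 to 0.24 for Atp6v1e1, -0.42 to 0.34 for Atp6v1f and -0.25 to 0.47 for Atp6v1h, each narrower than 1 on the log2 scale. For Atp6v1g2, with 32 to 92 counts per library, the interval was wider, from -1.01 to 0.90. Atp6v1c2, with 3 to 12 counts in these libraries, did not pass the filter on low counts. It was not called in the 6 other settings that tested it, with log2 fold changes of 0.060 to 0.45 and adjusted p of 0.582 to 0.773.

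**Figure D2:**
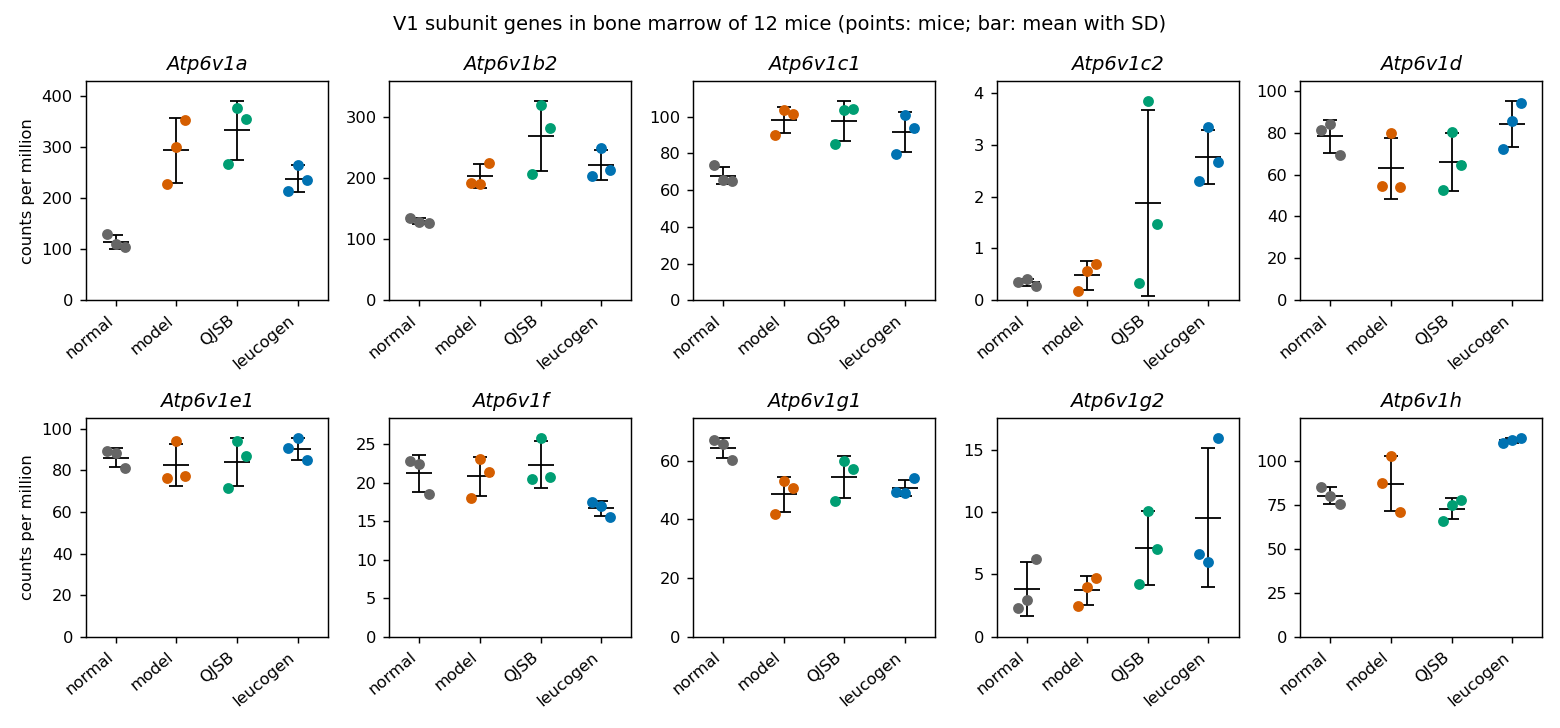
CPM of the 10 V1 genes in each of the 12 mice, with a panel for each gene, a point for each mouse and a black bar for the mean with its SD in each group (n = 3). The 3 normal mice sit at 104 to 129.8 CPM for Atp6v1a, below all other mice, and the 3 leucogen mice sit at 110.4 to 113.3 CPM for Atp6v1h, above all others.

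The partners of V1 were described from lists of genes. The V0 sector carries the protons through the membrane. Of its 12 listed genes and accessory subunits 11 were tested, 5 rose and 2 fell in the model group, with a median log2 fold change of 0.61. The genes that rose were Atp6v0d2 (log2 fold change 1.69), Atp6ap2 (1.33), Tcirg1 (1.12), which encodes the a3 subunit, Atp6v0c (0.93) and Atp6v0b (0.61), the latter 2 encoding subunits of the proton-carrying ring. Those that fell were Atp6v0a1 (-1.25), which encodes the a1 subunit, and Atp6ap1 (-0.53). Among 9 assembly factors 3 rose, with Ccdc115 the highest (1.40), and 2 fell, Ncoa7 (-2.05) and Dmxl1 (-2.04), the latter a part of the RAVE-like complex that helps V1 rejoin V0.

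Lysosomal genes outside the pump were described likewise. Of 30 enzymes and membrane proteins 23 rose and 1 fell in the model group, with a median log2 fold change of 0.89. The largest changes were those of Gla (2.13), Gaa (1.87) and Gusb (1.70), which encode lysosomal glycosidases. Of the 4 MiT/TFE factors, Tfec (2.39) and Mitf (0.60) rose and Tfeb fell (-1.01). Of the 9 genes of Ragulator and the Rag GTPases, which dock on the V-ATPase to sense amino acids, 3 rose and 1 fell, Rragd (-2.93).

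**Figure D3:**
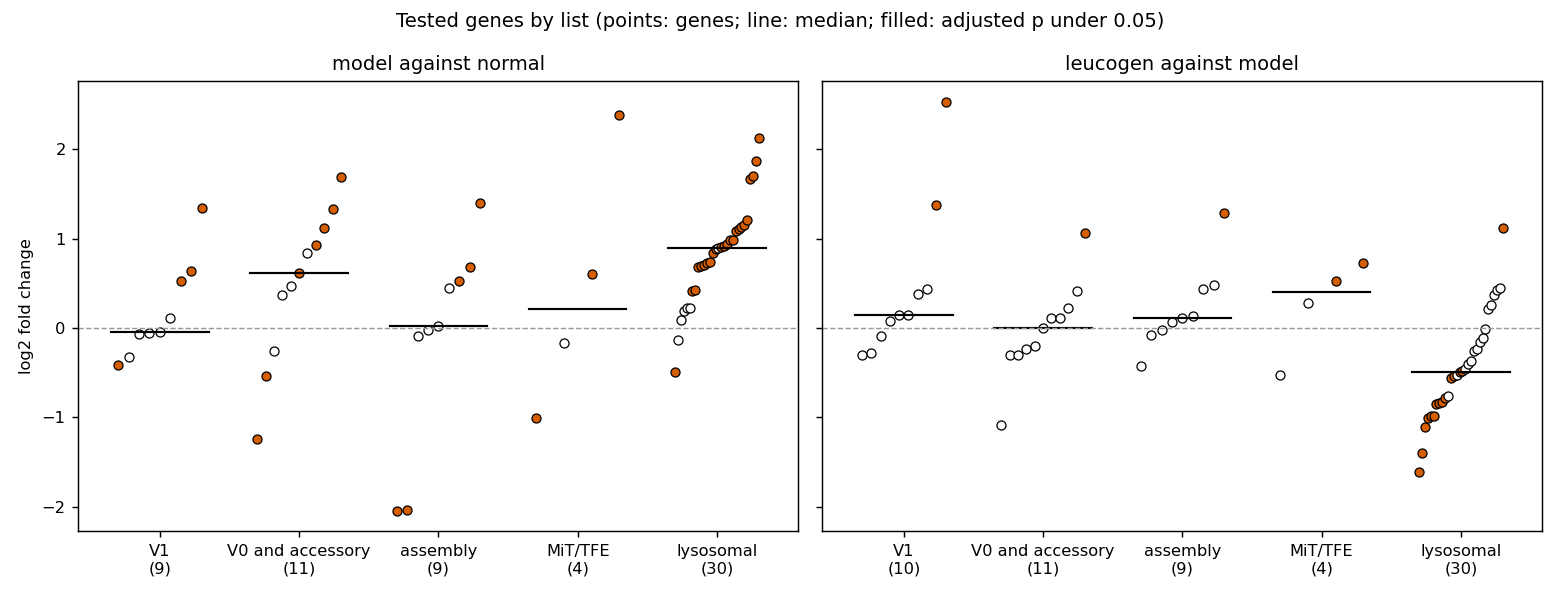
Log2 fold changes of the tested V1 genes and of 4 lists of partner genes, for model against normal (left) and leucogen against model (right). Each point is a gene, a black line marks the median and filled points passed an adjusted p of 0.05. In the left panel the lysosomal median is 0.89 and the V1 median -0.04, and in the right panel the lysosomal median is -0.49 and the V1 median 0.14.

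Markers of cell types moved between the same groups. In the model mice all 5 promyelocyte markers rose, with summed levels of 6580 to 9587 CPM against 732 to 948 in the normal mice, and all 5 monocyte markers rose, with 1823 to 2867 against 749 to 899 CPM. Of the 10 late neutrophil markers 5 fell, and all 9 erythroid markers fell. Of the 10 macrophage markers 3 rose and 6 fell, and of 7 osteoclast markers 3 were tested, with Acp5 lower (-2.06). The markers of pre-B, mature B, T and eosinophil cells also fell, for 4 of 6, 5 of 5, 5 of 5 and 5 of 6 genes. The part of these shifts in the V1 changes was not tested.

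The effect of QJSB was examined by comparing the QJSB group with the model group. None of the 10 V1 genes passed the adjusted threshold, and the groups overlapped for every one of them. In this edgeR fit 0% of the 14486 genes tested were called higher and 0% lower, with a smallest adjusted p of 0.767, although 723 genes had an unadjusted P under 0.05. DESeq2 called 8 genes, edgeR with the replicate numbers as a block called 18, and edgeR without QJSB mouse 1 called 3, and no V1 gene was among them. The groups did not overlap for 9.84% of all genes.

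The study itself called genes by P under 0.05 without adjustment, together with a change of over 1.5-fold either way. It applied that cutoff to DESeq2 results, while the counts here come from the edgeR fit. At that cutoff 1 V1 gene was higher in the QJSB group and none was lower, beside 1.68% and 1.4% of all genes. It was Atp6v1g2, with 2.48, 3.96 and 4.73 CPM in the model mice and 4.21, 10.1 and 7.04 CPM in the QJSB mice. QJSB mouse 1 fell within the model range, and the log2 fold change was 0.91 ± 0.39 (SE; edgeR adjusted p = 0.767). The paper describes Atp6v1g2 as decreased and Atp6v1c2 as increased with QJSB. Here the sign for Atp6v1g2 was the opposite and that for Atp6v1c2 the same. Atp6v1g2 was above 0 in all 16 other settings, DESeq2 among them, with log2 fold changes of 0.36 to 1.18. The reason for the opposite sign was not tested. Nfkbil1, which overlaps Atp6v1g2 on the other strand over 144 bases of exon, had a log2 fold change of 0.46 in the same comparison (edgeR adjusted p = 0.767) and of 1.12 for QJSB against normal (edgeR adjusted p = 0.0096). The 5 neuron markers summed to 0.378, 0.117 and 4.53 CPM in the QJSB mice and to at most 0.886 CPM in any other mouse, and all 5 were detected in QJSB mouse 3. The part of either in the value of Atp6v1g2 was not tested.

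For Atp6v1c2 the QJSB mice were far from even, with 6, 66 and 24 counts against 3, 8 and 12 in the model mice. QJSB mouse 1 lay within the model range and the others above it. The log2 fold change was 1.94 with a 95% interval of -0.02 to 3.90 (edgeR adjusted p = 0.767), and 0.88 without QJSB mouse 2.

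No label pairs the mice. The numbers of the QJSB and model mice were taken as pairs because same-numbered libraries correlated. The correlations did not favour the same number for mice 2 and 3, so those pairs are an assumption. Atp6v1a, Atp6v1b2, Atp6v1c2, Atp6v1g1 and Atp6v1g2 were higher in the QJSB mouse in 3 of 3 pairs, and Atp6v1h in 1 of 3. The share of all genes higher in 3 of 3 pairs was not computed, so nothing is concluded about V1 from these counts. With the numbers as a block, Atp6v1c2 had a log2 fold change of 1.69 ± 0.53 (SE; edgeR adjusted p = 0.371) and Atp6v1g2 one of 0.87 ± 0.29 (SE; edgeR adjusted p = 0.392). In that fit 2 V1 genes passed the study's cutoff and 0 the adjusted threshold. The share of all genes past the study's cutoff in the block fit was not computed. Among the genes called between model and normal, the mean of Atp6v1b2 was 202.7 CPM in the model and 269 CPM in the QJSB group, a log2 fold change of 0.39 (edgeR adjusted p = 0.767). The unpaired interval for QJSB against model was -0.31 to 0.64 for Atp6v1a, -0.04 to 0.82 for Atp6v1b2, -0.38 to 0.33 for Atp6v1c1 and -0.25 to 0.55 for Atp6v1g1. These comparisons share the 3 model libraries with model against normal, so the values are given side by side only.

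**Figure D4:**
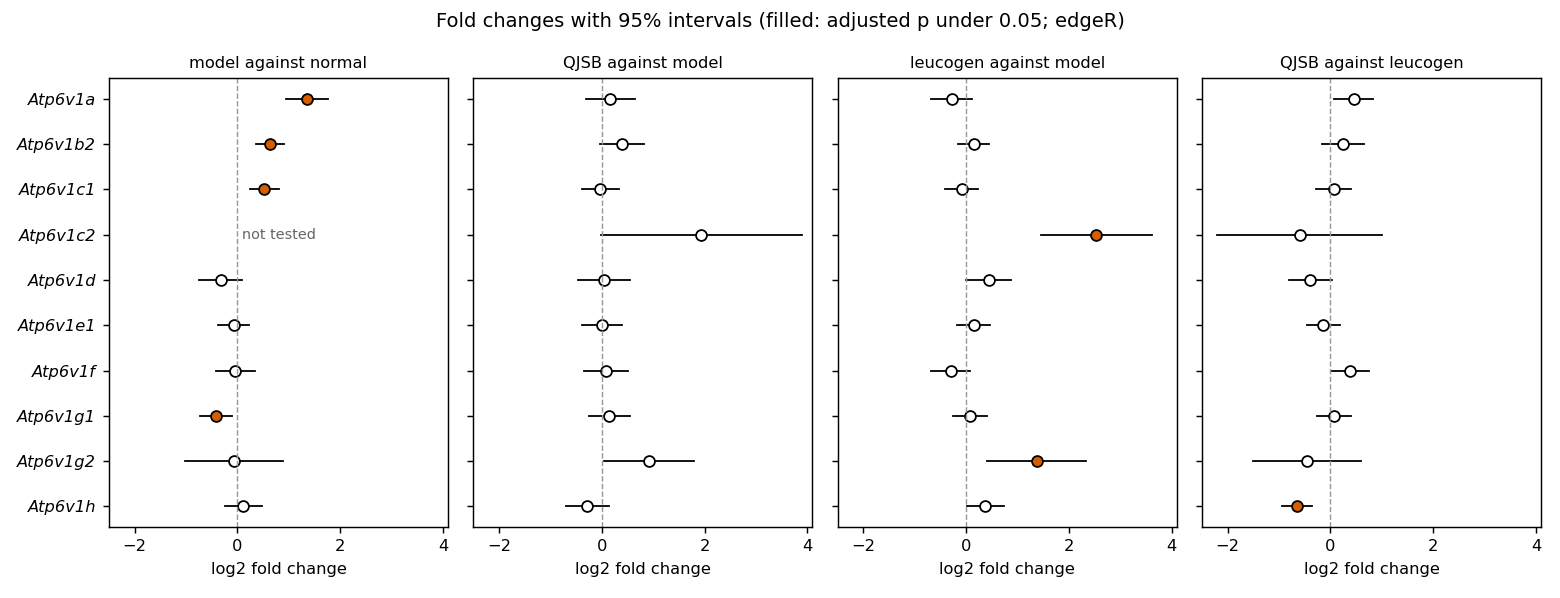
Log2 fold changes of the V1 genes with 95% intervals in 4 comparisons of 3 against 3 mice, filled where the edgeR adjusted p was under 0.05. Filled points are Atp6v1a, Atp6v1b2, Atp6v1c1 and Atp6v1g1 for model against normal, Atp6v1c2 and Atp6v1g2 for leucogen against model, and Atp6v1h for QJSB against leucogen, while QJSB against model has none.

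Leucogen was likewise compared with the model group. The alternative forms of subunits C and G were higher in the leucogen group, Atp6v1c2 5.80-fold and Atp6v1g2 2.59-fold, and no V1 gene was called lower. These were 2 of the 10 genes, all of them tested, beside 13.8% of all genes called higher and 13.3% called lower. The groups did not overlap for 4 V1 genes, Atp6v1c2, Atp6v1f, Atp6v1g2 and Atp6v1h, against 45.9% of all genes.

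Atp6v1c2 encodes a form of subunit C that is best known from kidney and lung epithelium. It had 29, 46 and 28 counts in the leucogen mice (2.30, 3.34 and 2.66 CPM) and 3, 8 and 12 counts in the model mice (0.173, 0.566 and 0.700 CPM). Each leucogen mouse was above each model mouse, with a log2 fold change of 2.54 ± 0.48 (SE; edgeR adjusted p = 0.00764). The gene passed the filter on low counts through the leucogen libraries. It was called in each of the 15 other settings that gave it a value. They reuse the same libraries and are no independent check. With at least 10 counts in every library it was not tested. Its exons overlap the gene Pdia6 on the other strand over 50 bases, 2.3% of its exon bases. Pdia6 had a log2 fold change of -1.43 in this comparison, and its part in the value of Atp6v1c2 was not tested.

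Atp6v1g2 encodes a form of subunit G that is best known from neurons, and the neuron markers summed to at most 0.0792 CPM in the leucogen mice. It had 6.65, 6.02 and 16.0 CPM in the leucogen mice, each above the 2.48 to 4.73 CPM of the model mice, and mouse 3 stood far above the other leucogen mice. The log2 fold change was 1.37 ± 0.42 (SE; edgeR adjusted p = 0.0418). The call was lost in 10 of 16 other settings, and without leucogen mouse 3 the log2 fold change was 0.78 with an adjusted p of 0.172. The overlap with Nfkbil1 takes 5.74% of the exon bases of Atp6v1g2, and whether reads were counted by strand is not given. Nfkbil1 had a log2 fold change of -0.08 (edgeR adjusted p = 0.818) in this comparison. The part of Nfkbil1 reads or of neurons in the value of Atp6v1g2 was not tested.

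Of the other 8 genes none passed the test. Atp6v1h was higher in each leucogen mouse, at 110.4, 112 and 113.3 CPM against 87.4, 102.7 and 71.3 in the model mice, with a log2 fold change of 0.38 (edgeR adjusted p = 0.107). Without model mouse 2 it was called higher, at 0.55, as was Atp6v1d, at 0.68. Atp6v1f was lower in each, at 17.4, 17.0 and 15.6 against 18.0, 23.0 and 21.4 CPM, with a log2 fold change of -0.30 (edgeR adjusted p = 0.203). It was called lower in the 3 fits of FPKM, with limma adjusted p of 0.0329 to 0.0411. The interval for Atp6v1a was -0.68 to 0.11, and with total counts in place of TMM factors it was called lower, at -0.45 (edgeR adjusted p = 0.0477).

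The share of the minor form within each pair was taken from FPKM, since a share within a library does not depend on the scaling between libraries. It does depend on the transcript lengths used. Atp6v1c2 made up 0.327 ± 0.066% (SD, n = 3) of the C genes in the normal group, 0.305 ± 0.16% in the model group, 1.15 ± 1.1% in the QJSB group and 1.89 ± 0.16% in the leucogen group. Leucogen mice were apart from model and from normal mice (exact permutation test, two-sided, p = 0.1 in each, the smallest that 3 against 3 allows). For QJSB against model the exact permutation p was 0.3 unpaired. The share was higher in the QJSB mouse in 3 of 3 assumed pairs (exact p = 0.25 by sign flips, the smallest that 3 pairs allow). By counts, not scaled to length, the mean share was 0.510% in the normal, 0.474% in the model, 1.78% in the QJSB and 2.92% in the leucogen group. Subunit C was thus supplied almost wholly by Atp6v1c1 transcripts in every mouse.

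Atp6v1g2 made up 1.09 ± 0.66% of the G genes in the normal, 1.35 ± 0.30% in the model, 2.24 ± 0.67% in the QJSB and 3.20 ± 1.6% in the leucogen group. The exact permutation p was 0.1 for leucogen against model and 0.2 for QJSB against model, where again 3 of 3 assumed pairs were higher (exact sign flips, p = 0.25). QJSB and leucogen mice overlapped in both shares, with exact permutation p of 0.4 for the C pair and 0.6 for the G pair. By counts, not scaled to length, the share of Atp6v1g2 was larger. It was 5.68 ± 3.3% in the normal, 7.03 ± 1.5% in the model, 11.2 ± 3.1% in the QJSB and 15.2 ± 6.6% in the leucogen group. The exact permutation p by counts was again 0.1 for leucogen against model and 0.2 for QJSB against model.

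Atp6v1c2 was set beside the late neutrophil markers, a list chosen after its spread within groups was seen. QJSB mouse 1 had the lowest values of its group for both, 0.324 CPM of Atp6v1c2 and 3325 CPM of markers, and QJSB mouse 2 the highest, 3.85 and 18726 CPM. The leucogen mice had 14571 to 18678 CPM of markers and 2.30 to 3.34 CPM of Atp6v1c2. The normal mice had 10168 to 10807 CPM of markers and 0.273 to 0.409 CPM of Atp6v1c2, and QJSB mouse 3 had 12574 and 1.47 CPM. Model mice 1, 2 and 3 had 2025, 6319 and 5197 CPM of markers and 0.173, 0.566 and 0.700 CPM of Atp6v1c2. Of the 10 markers 6 were called higher in leucogen than in model mice and 0 lower, and 4 of the 5 promyelocyte and 3 of the 5 monocyte markers were lower. Their part in the change of Atp6v1c2 was not tested.

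**Figure D5:**
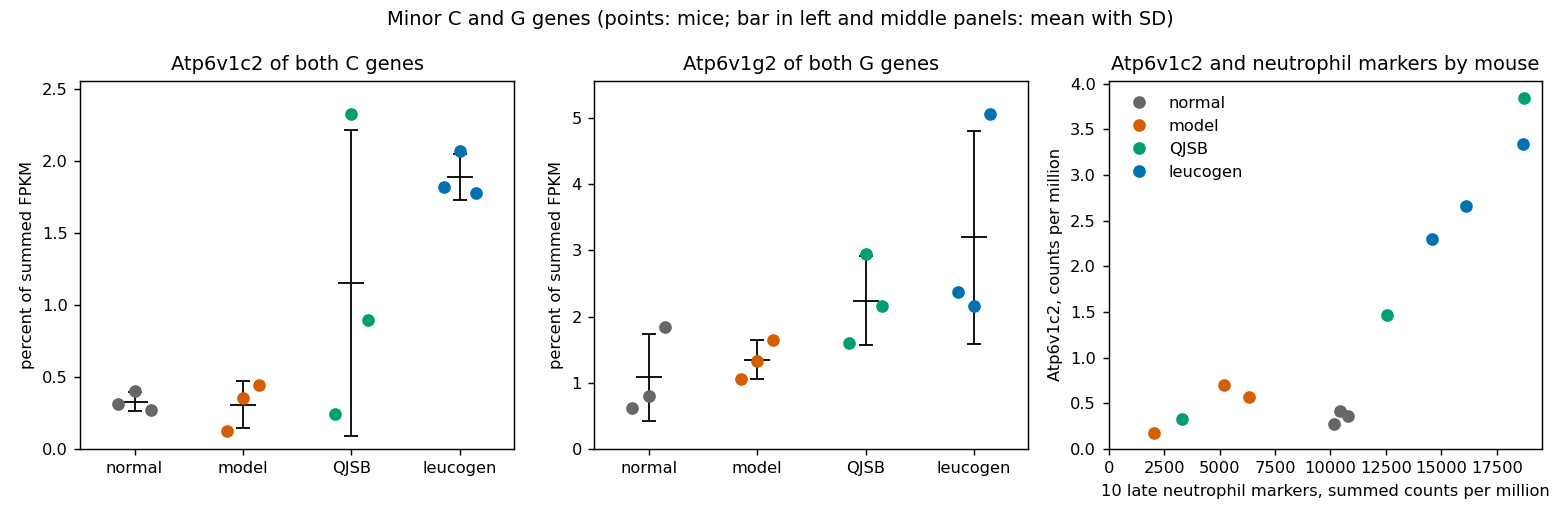
Share of Atp6v1c2 in the summed FPKM of both C genes (left) and of Atp6v1g2 in both G genes (middle) by mouse, with the mean and SD of each group, and Atp6v1c2 against the summed late neutrophil markers, both in CPM (right, a point for each mouse). The leucogen mice lie at 1.78 to 2.07% in the left panel, and in the right panel the 3 normal mice lie at 0.409 CPM or less and at 10168 to 10807 CPM of markers.

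The partner lists were also compared between leucogen and model mice. Of the 11 V0 and accessory genes tested only Atp6v0a1 was called, higher by a log2 fold change of 1.06 (edgeR adjusted p = 0.00304). Dmxl2 (1.29) was the only gene called among the assembly and regulatory factors. Tfe3 (0.73) and Tfeb (0.53) were higher among the MiT/TFE factors. Of the 30 lysosomal genes 14 were lower and 1 was higher, with a median log2 fold change of -0.49 and the largest changes in Ctsl (-1.62), Gaa (-1.40) and Cln3 (1.12). Of the Ragulator and Rag genes 1 was higher and 1 lower. With QJSB against model, none of these genes was called.

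The drug groups were compared directly. Atp6v1h, whose product keeps detached V1 inactive, was lower in the QJSB than in the leucogen group, at 0.637 of its level. It measured 66.2, 75.1 and 77.7 CPM in the QJSB mice and 110.4, 112 and 113.3 CPM in the leucogen mice. The groups were far apart for their spread, with a log2 fold change of -0.65 ± 0.13 (SE; edgeR adjusted p = 0.00756), and the call held in all 16 other settings. It was the only V1 gene called lower and 0 were called higher, beside 15.5% of all genes called higher and 13.8% called lower. The groups did not overlap for 3 V1 genes, against 48.9% of all genes.

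The others were Atp6v1a and Atp6v1f. Atp6v1a had 268, 377 and 355 CPM in the QJSB mice and 214, 265 and 236 CPM in the leucogen mice, and QJSB mouse 1 lay just above the highest leucogen mouse. The log2 fold change was 0.45 (edgeR adjusted p = 0.0735), which passed in 6 of 16 other settings. Without QJSB mouse 1 it was called, at 0.58, as was Atp6v1b2, at 0.40. Atp6v1f had a log2 fold change of 0.39 (edgeR adjusted p = 0.104). For the alternative forms the difference between the drugs was not resolved, with intervals of -2.21 to 1.01 for Atp6v1c2 and -1.51 to 0.60 for Atp6v1g2. Of the 30 lysosomal genes 22 were higher in the QJSB group and 1 lower, and of the V0 and accessory genes 2 were higher, Atp6v0d1 (0.66) and Atp6v0a2 (0.53), and 1 lower, Atp6v0a1 (-0.64).

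Against normal mice, both drug groups showed the rise of Atp6v1a, Atp6v1b2 and Atp6v1c1. In the QJSB group these 3 genes were called higher of 9 tested and none lower, with log2 fold changes of 1.54, 1.05 and 0.52, beside 22.1% of all genes higher and 23.2% lower. The groups did not overlap for 4 V1 genes, against 58.4% of all genes. Atp6v1c1 lost its call without normal mouse 2 or 3, with edgeR adjusted p of 0.0548 and 0.0502. Atp6v1c2 did not pass the filter on low counts here, and it was called higher with DESeq2 (2.42, adjusted p = 0.0221), with all 12 libraries in edgeR (2.39, adjusted p = 0.0203) and without QJSB mouse 1 (2.90, adjusted p = 0.00216). In 7 further settings it was not called. Atp6v1g2 was called without normal mouse 3 (1.43, edgeR adjusted p = 0.0433). In the leucogen group 5 V1 genes were higher and 1 lower of 10, beside 25.7% and 26.6% of all genes. There 7 did not overlap, against 61.8% of all genes.

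In the leucogen group the log2 fold changes against normal were 1.07 for Atp6v1a, 0.79 for Atp6v1b2, 0.45 for Atp6v1c1 and 2.98 for Atp6v1c2, which again passed the filter through the leucogen libraries. Atp6v1h was 0.50 higher (edgeR adjusted p = 7.52e-04), and the normal mice had 85.1, 80.03 and 75.4 CPM. Atp6v1g1 was lower (-0.32; edgeR adjusted p = 0.0159), and without normal mouse 1 or 2 the adjusted p was 0.0627 and 0.0537. Atp6v1f had a log2 fold change of -0.33 (edgeR adjusted p = 0.0567), which was called lower in 7 of 16 other settings, among them total counts and the fits of FPKM. Atp6v1g2 (1.32, edgeR adjusted p = 0.087) was called in 3 of 16, with DESeq2 (adjusted p = 0.0111), with the replicate block (adjusted p = 8.62e-04) and without normal mouse 3 (1.87). Without that mouse Atp6v1f was called too, at -0.42. All of these comparisons use the same 3 normal libraries.

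The genes with the most similar course over the 12 libraries were ranked by the root mean square difference of centred log2 CPM, among up to 9470 genes with a mean of at least 10 CPM. For Atp6v1a, which had an SD of 0.65 on the log2 scale, these were Vim (0.125), Atp6ap2 (0.133), the V0 accessory subunit, and Galt (0.143). For Atp6v1b2 they were Itm2b (0.0788), Rnf130 (0.0809) and Sptbn1 (0.0833). For Atp6v1h, with an SD of 0.273, the nearest was Gtf2b (0.065), and for Atp6v1c1 Stam2 (0.089). For Atp6v1c2 the nearest, Ly75, differed by 0.386 against an SD of 1.33, and for Atp6v1g2 the nearest, Arrb2, by 0.41 against 0.8. For Atp6v1e1, the steadiest V1 gene with an SD of 0.133, the nearest was Trip12 (0.0717). The nearest were Exoc6 (0.098) for Atp6v1d, Fkbp8 (0.0896) for Atp6v1f and Brd8 (0.0824) for Atp6v1g1.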

How the data were processed

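Total RNA of bone marrow from 12 mice was depleted of ribosomal RNA, made into strand-specific libraries and sequenced by the authors, who trimmed the reads and aligned them with HISAT2 to mm10 (per the labels). The program and strand setting of the counting are not given in the sources used here. The deposited table holds raw read counts and FPKM per gene and library, both made by the authors. Column names were matched to groups as told above. Read against the mean normalised counts that the study lists, this gave values within 1% for 298, 300 and 300 of 300 genes in its comparisons, and any other reading for at most 10.

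Counts were tested pairwise with edgeR 4.0.16 (R 4.3.3): filterByExpr, TMM factors, robust quasi-likelihood fits and Benjamini-Hochberg adjustment over all genes tested, called under 0.05. CPM is the count scaled to the library total times a TMM factor set over all 12 libraries. Intervals are at 95%. Nothing says how RNA of the 3 mice in a group was handled beyond their being separate samples, so p-values measure the spread between these samples. Shares were compared by exact permutation tests. Alternatives were DESeq2 1.42.0, its size factors in edgeR, total counts, no filter, a minimum of 10 counts in each library, a joint fit of all 12 libraries, a replicate block, limma 3.58.1 on log2(FPKM + 0.1), with and without a filter at a mean of 0.1 FPKM, and on log2(FPKM + 1), and leaving out each mouse. Sign flips within pairs of shares were added after seeing the data. The scripts were tested on simulated data. All 10 V1 genes are named, with at most 3 called genes of each partner list but the V0 list, and the 3 nearest genes by course for some and the nearest for others. The V1 genes and the lists were chosen with earlier results of these data known.

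The replicate numbers were checked for pairing by correlating deviations from group means. For QJSB and model libraries of the same number the correlations were 0.471, 0.144 and 0.116, each over 0.1. The numbers were taken to pair them on that rule alone. QJSB mouse 2 correlated more with model mouse 3 (0.169), and QJSB mouse 3 more with model mouse 2 (0.2). The correlations therefore do not establish the pairs of mice 2 and 3, which are an assumption.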

Additional observations from a re-analysis of the deposited data

How the results depend on the processing

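Calls for Atp6v1a and Atp6v1b2 (model against normal), Atp6v1c2 (leucogen against model) and Atp6v1h (QJSB against leucogen) were kept in each alternative that gave a value. The alternatives reuse the same libraries and are no independent check. Scaling by total counts moved the median of all genes to 0.14 for model against normal, -0.22 for leucogen against model and 0.12 for QJSB against leucogen, and log2(FPKM + 0.1) to 0.11 and -0.20 for the first and second. V1 changes near 0 then changed sign. With total counts these were, for model against normal, Atp6v1e1 (0.051), Atp6v1f (0.078) and Atp6v1g2 (0.046). For QJSB against model they were Atp6v1d (-0.051), Atp6v1e1 (-0.086) and Atp6v1f (-0.0030), and for leucogen against model Atp6v1b2 (-0.028), Atp6v1e1 (-0.026) and Atp6v1g1 (-0.087). With log2(FPKM + 0.1), filtered or not, the same genes in the same order had 0.045, 0.079 and 0.12, then -0.035, -0.080 and -0.0023, then -0.029, -0.021 and -0.083. With log2(FPKM + 1) they had 0.043, 0.076 and 0.033, then -0.035, -0.076 and -0.0022, then -0.028, -0.020 and -0.082.

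At the study's cutoff, QJSB against model gave 2 genes with DESeq2, with no filter and with the replicate block, and 0 with total counts and the FPKM fits. Leucogen against model gave 1 called gene with at least 10 counts in every library, where Atp6v1c2 was not tested, and 1 with all 12 libraries. With total counts Atp6v1a was called lower there (-0.45) and Atp6v1g2 lost its call, and in the FPKM fits Atp6v1f was called lower (-0.44 to -0.47) and Atp6v1g2 lost its call. QJSB against leucogen gave 2 with total counts, adding Atp6v1a, and 3 in the FPKM fits, adding Atp6v1f. The cause of these changes was not tested. Over all genes, leucogen against model called 3827 of 12871 with at least 10 counts and 4494 of 15310 with all 12 libraries. QJSB against leucogen called 4088 of 14266 with total counts and 4049 of 15875 with log2(FPKM + 0.1). The share of all genes past the study's cutoff was computed for the main fit only.

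With the replicate block Atp6v1g2 changed sign for model against normal (0.020), Atp6v1g1 lost its call there (adjusted p = 0.0576), and QJSB against leucogen gave 2 called genes, Atp6v1a and Atp6v1h. Over all genes the block called 4486 of 14266 for QJSB against leucogen. For QJSB and model the block follows the assumed pairs. In the other comparisons the correlations between same-numbered libraries were not all over 0.1 (-0.121 to 0.201), so the numbers are only shared there. The block called Atp6v1g2 for leucogen against normal (edgeR adjusted p = 8.62e-04).

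Leaving out each mouse gave 2 to 5 called genes for model against normal (2 without normal mouse 2, 5 without model mouse 2, which added Atp6v1d), 1 to 3 for leucogen against model (3 without model mouse 2, where Atp6v1d and Atp6v1h were added), 1 to 3 for QJSB against leucogen (3 without QJSB mouse 1) and 0 to 2 at the study's cutoff for QJSB against model. Calls over all genes moved too. For model against normal they were 4274 of 15074 without normal mouse 2 and 6636 of 15077 without model mouse 2. For leucogen against model they were 4589 of 14557 without model mouse 2 and 1239 of 14680 without leucogen mouse 3. For QJSB against leucogen they were 4768 of 14414 without QJSB mouse 1 and 1545 of 14773 without leucogen mouse 3. The share of all genes past the study's cutoff was not computed here. Signs changed for model against normal in Atp6v1f (-0.12 to 0.063), Atp6v1g2 (-0.32 to 0.50) and Atp6v1h (-0.011 to 0.25). For QJSB against model they changed in Atp6v1c1 (-0.086 to 0.063), Atp6v1d (-0.11 to 0.26), Atp6v1e1 (-0.072 to 0.12) and Atp6v1f (-0.022 to 0.17). For leucogen against model they changed in Atp6v1c1 (-0.15 to 0.015) and Atp6v1g1 (-0.0024 to 0.19), for QJSB against leucogen in Atp6v1c1 (-0.034 to 0.14) and Atp6v1g2 (-0.78 to 0.14), and for QJSB against normal in Atp6v1e1 (-0.12 to 0.062) and Atp6v1f (-0.041 to 0.12). Atp6v1c2 had 3 to 66 and Atp6v1g2 32 to 173 counts per library, against 164 to 6468 for the other V1 genes.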
